A study of Mus musculus with 6 samples.

Results

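The Schlafen genes of the mouse form a cluster on chromosome 11, and 7 of its genes, Slfn1, Slfn2, Slfn3, Slfn4, Slfn5, Slfn8 and Slfn9, were followed here by RNA-Seq in Th9 cells with and without the transcription factor IRF1. They were chosen by name and position, and 7 of the 41388 genes listed in the table are members. WT and Irf1-/- T cells, both on the C57BL/6 background, were taken from mouse spleen and lymph nodes and cultured for 2 days with IL-2, IL-4 and TGF-β, which drive naive CD4+ T cells towards IL-9-producing Th9 cells. By the study's methods, such cultures were activated with antibodies to CD3 and CD28. They also held an antibody to mouse IFN-γ, and the IFN-γ added was that of the rat. IFN-γ, an inducer of IRF1, was present in every culture of both genotypes, so that no culture shows the level of these genes without it. There were 3 WT and 3 Irf1-/- cultures, which the study describes as independent biological samples. The study's methods describe its mice as young adults of matched age and sex, and the labels say of the mutant only that it lacked IRF1.

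Schlafen proteins are encoded by a family of genes that expanded in rodents, many of which are induced by interferons. They are grouped by length. The short forms (Slfn1, Slfn2) consist of little more than the Schlafen core, and the intermediate forms (Slfn3, Slfn4) extend further beyond it. The long forms (Slfn5, Slfn8, Slfn9) add a helicase-like part. Several Schlafen proteins bind or cut tRNA, and in T cells the family is best known for Slfn2, whose loss prevents T cells from staying quiescent.

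The cluster lies 29.2 Mb from Irf1 itself and the 7 members span 264 kb (chr11:82951349-83215154 of GRCm38). In the order of the chromosome, Slfn5 is followed by Slfn9, Slfn8, the pseudogene Slfn10-ps, Slfn2, Slfn1, Slfn4 and Slfn3. Slfn9, Slfn8 and Slfn10-ps are read from the - strand and the other genes from the + strand. To show how the start regions of the members differ, the 150 bases before the start of 5 members are printed here, 5′ to 3′ on the strand of the gene, from RefSeq promoter windows of GRCm38.p6. Shown are the 3 members that passed the test for a lower level in Irf1-/- cells (Slfn1, Slfn2, Slfn3) and the pair with the most similar windows, Slfn8 and Slfn9. Capitals in Slfn8 and Slfn9 mark a match to the core of the interferon-stimulated response element. In Slfn1 and Slfn3 they mark the run ACTTCCTGG, and in Slfn2 this run together with an overlapping match to the ETS-IRF composite element. The run was picked because Slfn1, Slfn2, Slfn3 and Slfn4 share it. The windows are chr11:83116670-83116819 (+) for Slfn1, chr11:83064962-83065111 (+) for Slfn2, chr11:83191180-83191329 (+) for Slfn3, chr11:83020811-83020960 (-) for Slfn8 and chr11:82991831-82991980 (-) for Slfn9.
Slfn1: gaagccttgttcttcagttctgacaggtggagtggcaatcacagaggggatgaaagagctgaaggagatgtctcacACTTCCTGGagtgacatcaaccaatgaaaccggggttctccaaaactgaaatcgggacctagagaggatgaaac
Slfn2: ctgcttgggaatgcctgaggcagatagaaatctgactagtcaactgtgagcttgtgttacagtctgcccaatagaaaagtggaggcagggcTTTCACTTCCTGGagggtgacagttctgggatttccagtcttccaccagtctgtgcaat
Slfn3: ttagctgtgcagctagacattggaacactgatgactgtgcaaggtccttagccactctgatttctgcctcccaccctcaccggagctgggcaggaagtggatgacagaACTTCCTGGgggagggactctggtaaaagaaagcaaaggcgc
Slfn8: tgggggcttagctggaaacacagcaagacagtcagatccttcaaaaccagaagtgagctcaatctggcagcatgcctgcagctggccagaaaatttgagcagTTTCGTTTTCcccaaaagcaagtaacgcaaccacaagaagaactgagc
Slfn9: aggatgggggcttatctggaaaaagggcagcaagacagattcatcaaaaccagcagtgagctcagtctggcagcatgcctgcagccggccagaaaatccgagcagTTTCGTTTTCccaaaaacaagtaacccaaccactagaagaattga

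Windows of 300 bases, 250 before and 50 after the start, were searched on both strands for 3 motifs. The core of the interferon-stimulated response element, bound by IRF proteins, was spelled GAAA, any 2 bases, GAAA, and occurred in 3.44% of 32851 RefSeq windows of this build. It occurred in Slfn8 and Slfn9 as GAAAACGAAA, first base at positions -48 and -45 from the start, on the strand opposite to the gene, at chr11:83020849-83020858 and chr11:82991866-82991875. Slfn8 has a further RefSeq start at base 83020722, from which the same site begins at position -136. In Slfn5 the core occurred as GAAAAAGAAA, first base at position -155, on the strand of the gene, at chr11:82951947-82951956. The RefSeq start used for Slfn5 (chromosome 11, base 82952102) lies inside the longer GENCODE gene. The ETS-IRF composite element, spelled GGAA, any 2 bases, GAAA and found in 2.72% of windows, occurred in Slfn2 as GGAAGTGAAA, first base at position -59 and on the opposite strand, at chr11:83065053-83065062. The GAS element TTCNNNGAA, the IFN-γ-activated site, found in 8.30% of windows, had no match in the windows of the 7 members. Slfn1, Slfn3 and Slfn4 had no match to any of the 3 motifs. The run ACTTCCTGG, of 9 bases, was searched for after the windows had been read, as the longest run common to Slfn1, Slfn2, Slfn3 and Slfn4. Its presence in these genes was thus fixed by the search and is no result about them. The run began at position -74 in Slfn1, -55 in Slfn2, -42 in Slfn3 and -73 in Slfn4. It was not found in Slfn5, Slfn8 or Slfn9, and occurred in 0.843% of all windows on either strand. The windows of Slfn8 and Slfn9 were identical at 80.7% of 305 aligned columns, whereas the other pairs of members were identical at 42.3% to 50.3%. These matches describe letters in the sequence. No binding was measured here.

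WT libraries held 6381576 to 13348230 reads on genes and Irf1-/- libraries 5639788 to 12423511. Values are normalized counts, in which a gene's reads were scaled by a size factor for the depth of each library, and 3 reads were worth 1.84 to 4.16 normalized counts. Irf1, the targeted gene, had 2968, 2907 and 2660 in WT cultures and 1780, 1729 and 1476 in Irf1-/- cultures. Its reads were thus lower but far from absent, and where on the gene they lay was not analysed here. The 8 T cell markers, with Cd3e and Cd4 among them, summed to 13526 to 13783 in WT and 13550 to 14766 in Irf1-/- libraries. Within this sum, Thy1 (1181 to 2100 and 2637 to 3391) and Cd3d (1186 to 1266 and 1298 to 1390) were higher in Irf1-/- libraries without overlap. Cd3e (1580 to 1666 and 1241 to 1409), Cd4 (3900 to 4030 and 3554 to 3839) and Trac (972 to 1041 and 756 to 853) were lower without overlap. The genotypes overlapped for Cd3g, Cd28 and Cd5. These genes were named after their values were seen. Of 5 B cell markers, 4 were detected, with sums of 18.7 to 26.4 in WT and 21.7 to 37.4 in Irf1-/- libraries, and Pax5 was at 0. Of 4 NK cell markers, Klre1 was detected, in Irf1-/- replicates 1 and 2 (2.39 and 1.39), and Ncr1, Klrb1c and Klra8 were at 0. The 8 myeloid markers were all detected and summed to 54.9 to 182 in WT and 42.8 to 1042 in Irf1-/- libraries, with the highest sum in Irf1-/- replicate 2. WT replicates 1 and 2 stood apart from the other 4 libraries: 4 Y-linked genes summed to 2301 and 2306 there and to between 0 and 11.1 in the others, which held Xist at 16973 or more. These values go against the matched sex that the methods state, and the sex of the mice and the genotype are partly confounded here. Results for the members are therefore given also with the Y-linked sum as a covariate of the fit, and in the 4 Xist libraries only, a choice made after seeing the data, with WT replicate 3 against 3 Irf1-/- cultures. In bulk cultures, fewer cells that express a gene and less RNA per cell cannot be told apart.

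Within the family, Slfn2 was the dominant transcript in both genotypes. Per kb of exon its mean normalized count was 1223 ± 225 for WT and 766 ± 125 for Irf1-/- (SD over 3 cultures each), 19.3 and 16.2 times the level of the next member. In WT cells Slfn3 (63.5 ± 4.58 per kb, SD, n = 3) and Slfn1 (60.7 ± 5.77 per kb, SD, n = 3) came next, with ranges that overlapped. They were followed by Slfn9 (29.2 ± 2.91 per kb), Slfn8 (23.6 ± 0.875 per kb), Slfn5 (6.78 ± 1.28 per kb) and Slfn4 (0.456 per kb), and each of these steps was larger than the spread, with no overlap between neighbours. In Irf1-/- cells the order of the means was the same, but the neighbours without overlap had changed: Slfn3, at 47.2 ± 0.904 per kb (SD, n = 3), lay above Slfn1, at 33.9 ± 9.47 per kb (SD, n = 3), and Slfn1 now overlapped Slfn9, at 24.3 ± 3.52 per kb (SD, n = 3). Slfn2 made up 72.6% to 77.9% of all counts on the 7 genes in WT libraries and 68.0% to 74.3% in Irf1-/- libraries.

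**Figure D1:**
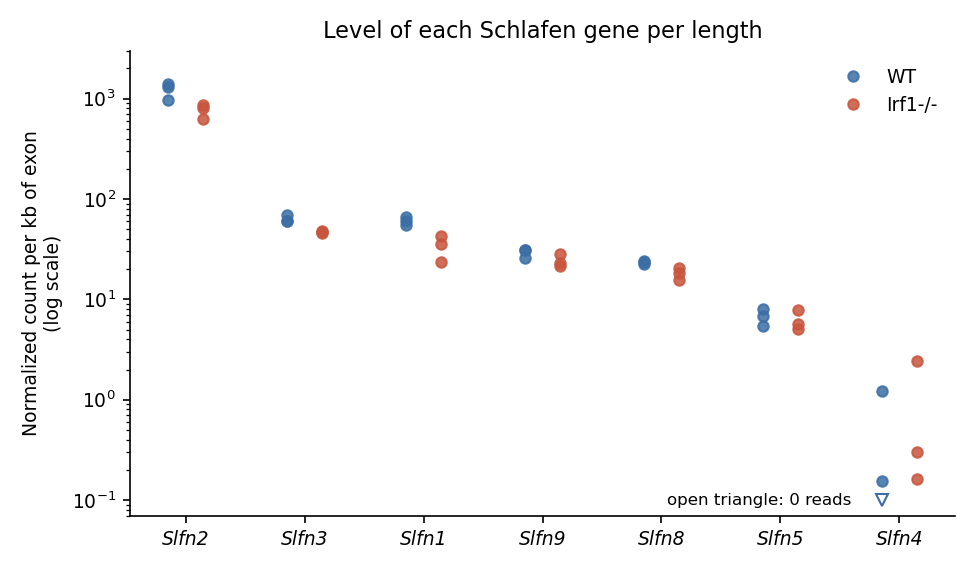
Normalized count per kb of exon on a log axis for the 7 Schlafen genes, each point 1 library, 3 WT (blue) and 3 Irf1-/- (red) per gene, genes ordered by their WT mean. Slfn2 lies far above the other members in both genotypes, Slfn3 and Slfn1 overlap in WT cells but not in Irf1-/- cells, and Slfn4 is at or near 0, with an open triangle for the WT library without reads.

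The genotypes were compared to see which members differed in level between them in cells exposed to IFN-γ, with sex partly confounded. Slfn1, Slfn2 and Slfn3, a group that holds both short forms and an intermediate one, fell in Irf1-/- cells, to 55.9%, 62.7% and 74.3% of their WT means. The long forms Slfn8, Slfn9 and Slfn5 had Irf1-/- means at 77.3%, 83.2% and 91.4% of WT. In the main fit none of the 3 passed the threshold, although Slfn8 passed under some alternatives. Slfn4 was hardly detected. Of the 7 members, 6 reached the mean of 10 normalized counts needed for testing. By limma on log2(normalized count + 1), with Benjamini-Hochberg adjustment over 11379 genes, 3 of these 6 were lower in Irf1-/- cells at an adjusted p below 0.05, beside 12.4% of all genes tested (23.7% in either direction). No member was called higher by limma, edgeR or DESeq2, and since all 6 log2 fold changes were below 0, none was higher at an unadjusted p under 0.05 either. In 4 of the 6, Slfn1, Slfn2, Slfn3 and Slfn8, every Irf1-/- value lay below every WT value, which was so for 20.9% of all genes tested. The median log2 fold change was -0.40 over the 6 members and -0.0037 over all genes, of which 5755 had a value below 0. Fold changes are on the log2(normalized count + 1) scale, which understates those of low genes.

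**Figure D2:**
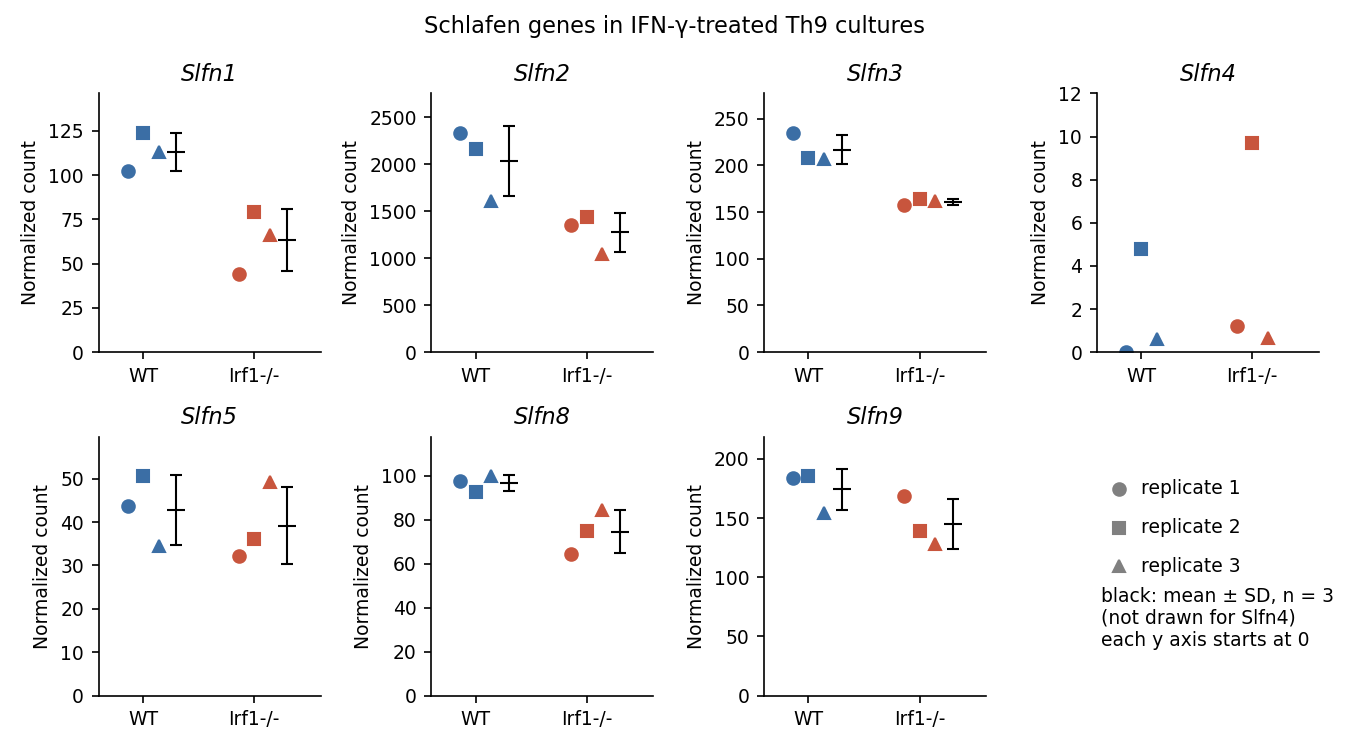
Normalized counts of the 7 Schlafen genes in 3 WT (blue) and 3 Irf1-/- (red) cultures, each symbol 1 library, with the mean ± SD (n = 3) in black except for Slfn4. Every Irf1-/- value lies below every WT value for Slfn1, Slfn2, Slfn3 and Slfn8, whereas the genotypes overlap for Slfn9, Slfn5 and Slfn4.

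Slfn1 (ENSMUSG00000078763, chr11:83116849-83122670, + strand) encodes a short Schlafen protein that restrains T cell growth when overexpressed in thymocytes. It had 102, 124 and 113 normalized counts in WT replicates 1 to 3 and 44.2, 79.0 and 66.5 in Irf1-/- replicates 1 to 3. The lowest WT culture was still above the highest Irf1-/- culture, and the spread was wider in the mutant. Over 3 cultures each, the mean ± SD was 113 ± 10.7 against 63.2 ± 17.7, and the log2 fold change was -0.86 (standard error 0.200, 95% interval -1.31 to -0.42, adjusted p = 0.0111 by limma). This was the largest difference among the 6 tested members, though not without Irf1-/- replicate 1, where it was -0.63 and that of Slfn2 -0.72, and 1.87% of all genes tested had a lower fold change. It was -0.82 with the Y-linked covariate (limma adjusted p = 0.0236) and -0.87 in the 4 Xist libraries, where it was not past the threshold (limma adjusted p = 0.125). Without WT replicate 2, the highest WT culture, the difference of -0.80 narrowly missed the threshold (limma adjusted p = 0.0528).

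Slfn2 (ENSMUSG00000072620, chr11:83065112-83070678, + strand) encodes the short Schlafen protein needed for T cell quiescence, which protects tRNAs from cleavage when T cells are activated. It had 2332, 2157 and 1614 normalized counts in WT and 1350, 1435 and 1040 in Irf1-/- cultures. Replicate 3 was the lowest of its genotype in both, and the genotypes did not overlap. Over 3 cultures each, the mean ± SD was 2034 ± 375 against 1275 ± 208, and the log2 fold change was -0.67 (standard error 0.141, 95% interval -0.98 to -0.36, adjusted p = 0.00695 by limma). In replicates 1 and 2 alone the value was -0.69, and in the pair of replicates 3, without a test, -0.63. WT replicates 1 and 2, which held the Y-linked transcripts, were also those with the highest Slfn2. With the Y-linked covariate the fold change was -0.39 (limma adjusted p = 0.00853), and in the 4 Xist libraries it was -0.35 and not past the threshold (limma adjusted p = 0.203).

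Slfn3 (ENSMUSG00000018986, chr11:83191330-83215154, + strand) encodes an intermediate Schlafen protein. It had 235, 208 and 207 normalized counts in WT and 158, 164 and 162 in Irf1-/- cultures. The values lay close together within each genotype, with a gap between them. Over 3 cultures each, the mean ± SD was 217 ± 15.6 against 161 ± 3.08, and the log2 fold change was -0.42 (standard error 0.0957, 95% interval -0.64 to -0.21, adjusted p = 0.00987 by limma). It was -0.38 with the Y-linked covariate (limma adjusted p = 0.0440) and -0.36 in the 4 Xist libraries (limma adjusted p = 0.191, not past the threshold). WT replicate 1 was the highest of the 6 cultures, and without it the fold change of -0.36 was not past the threshold (limma adjusted p = 0.0524).

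Slfn4 (ENSMUSG00000000204, chr11:83175186-83190216, + strand), the other intermediate form, is known mainly from interferon-treated macrophages and other myeloid cells. It had 0, 4 and 1 reads in the WT libraries and 1, 7 and 1 reads in the Irf1-/- libraries, or 0, 4.81 and 0.615 against 1.19, 9.71 and 0.639 normalized counts. Only replicate 2 of each genotype was above 3 reads, and the genotypes overlapped. No fold is given at these counts, and a difference was not detectable at this depth. Of the myeloid markers, Lyz2 had 11.2, 96.2 and 24.0 in WT and 134, 559 and 7.03 in Irf1-/- libraries. Replicate 2 was thus highest within each genotype for Lyz2 and for Slfn4, and also for Cd14, Itgam, Tyrobp and Adgre1. The other myeloid markers were highest in replicate 2 of Irf1-/- but not of WT, where Cd68 and Fcer1g were highest in replicate 1 and Csf1r in replicate 3. Irf1-/- replicate 1 had more Lyz2 than WT replicate 2 but fewer Slfn4 reads. The part of myeloid cells in the Slfn4 reads was not tested.

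Slfn8 (ENSMUSG00000035208, chr11:83002158-83020810, - strand) encodes a long Schlafen protein. It had 97.3, 92.6 and 99.6 normalized counts in WT and 64.5, 74.9 and 84.4 in Irf1-/- cultures. All Irf1-/- values were below all WT values, but with a wider spread. Over 3 cultures each, the mean ± SD was 96.5 ± 3.58 against 74.6 ± 9.95, and the log2 fold change was -0.38 (standard error 0.142, 95% interval -0.69 to -0.062), which did not pass the adjustment over all genes (adjusted p = 0.0799 by limma). Slfn8 did pass with the replicate number as a block in the fit (-0.38, limma adjusted p = 0.0477) and with quantile normalization (-0.45, limma adjusted p = 0.0452). Irf1-/- replicate 3 was the mutant culture nearest to WT, and without it the fold change was -0.47 and past the threshold (limma adjusted p = 0.0486). It was -0.42 both with the Y-linked covariate (limma adjusted p = 0.121) and in the 4 Xist libraries (limma adjusted p = 0.310).

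Slfn9 (ENSMUSG00000069793, chr11:82978390-82991830, - strand), the other long form of the - strand, had 183, 185 and 154 normalized counts in WT and 168, 139 and 128 in Irf1-/- cultures. WT replicate 3 lay below Irf1-/- replicate 1, so that the genotypes overlapped. Over 3 cultures each, the mean ± SD was 174 ± 17.3 against 145 ± 20.98, and the log2 fold change was -0.27 (95% interval -0.56 to 0.017, adjusted p = 0.161 by limma). It was -0.14 with the Y-linked covariate (limma adjusted p = 0.556) and -0.099 in the 4 Xist libraries (limma adjusted p = 0.813).

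Slfn5 (ENSMUSG00000054404, chr11:82951349-82964840, + strand), a long form that can act in the nucleus on transcription, was the lowest of the tested members. It had 43.7, 50.5 and 34.4 normalized counts in WT and 32.2, 36.1 and 49.2 in Irf1-/- cultures. Replicate 3 was the lowest culture in WT and the highest in Irf1-/- cells, and the genotypes overlapped over most of their range. In replicates 1 and 2 alone the log2 fold change was -0.45 (limma adjusted p = 0.190), and in the pair of replicates 3, without a test, 0.50. The log2 fold change was -0.13 (95% interval -0.63 to 0.36, adjusted p = 0.712 by limma), and its sign turned with the Y-linked covariate (0.039) and in the 4 Xist libraries (0.16). The interval leaves room for a change of either sign.

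**Figure D3:**
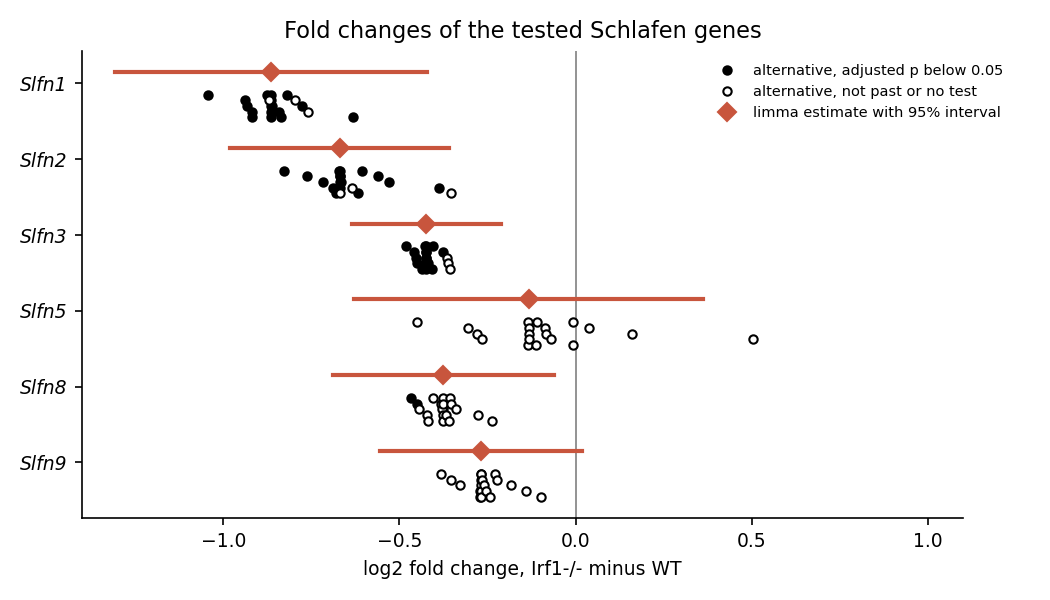
log2 fold change, Irf1-/- minus WT, of the 6 tested Schlafen genes, with the limma estimate and its 95% interval (red diamond and line) and the value under each alternative setting (circles, filled where the adjusted p is below 0.05). All values for Slfn1, Slfn2, Slfn3, Slfn8 and Slfn9 lie below 0, whereas those of Slfn5 lie on both sides.

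The Schlafen genes arose by duplication and still share stretches of sequence, which limits how surely a read can be given to a single member. Of all windows of 50 bases in its exons, Slfn3 shared 15.6% exactly with another gene (7.39% with Slfn4), Slfn8 14.6% (10.1% with Slfn10-ps), Slfn9 11.5% (8.10% with Slfn10-ps) and Slfn4 10.8%. Slfn2 shared 4.27%, Slfn5 3.37% and Slfn1 0.606%. These shares are for the same strand. On either strand that of Slfn5 was 11.1%, and its antisense gene Slfn5os had no reads. How the authors treated strand and reads with several matches was not given in the sources used here, so that the values of Slfn3, Slfn4, Slfn5, Slfn8 and Slfn9 are less certain than those of Slfn1 and Slfn2. Summed, Slfn3 and Slfn4 had 218 ± 14.3 against 165 ± 7.59 (SD over 3 cultures each, WT first), 75.5% of WT with no overlap. The sum of Slfn8, Slfn9 and Slfn10-ps was 496 ± 65.4 against 452 ± 12.8, 91.1% of WT with overlap, so that the lack of overlap seen for Slfn8 alone was lost in the sum. All 7 members together had 2679 ± 405 against 1762 ± 210, 65.8% of WT with no overlap, of which Slfn2 is the greater part.

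Of the other Schlafen genes, the pseudogene Slfn10-ps was tested. It had 247, 262 and 167 normalized counts in WT and 220, 251 and 227 in Irf1-/- cells, between its neighbours Slfn8 and Slfn2 on the chromosome. Its Irf1-/- values lay within the WT range, with a log2 fold change of 0.069 (95% interval -0.27 to 0.41, adjusted p = 0.784 by limma). Without WT replicate 3, the lowest of the 6, the value was -0.13, and in the 4 Xist libraries it was 0.47 (limma adjusted p = 0.0900). With the Y-linked covariate it was 0.38 and past the threshold (limma adjusted p = 0.0269), so that the pseudogene was then higher in Irf1-/- cells. Slfn14, a long form known from platelets, and the antisense gene Slfn5os had 0 reads in all 6 libraries, and Slfnl1 of chromosome 4 had a single read.

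The neighbourhood of the cluster showed both directions. Within 1 Mb, 22 genes other than the members were tested, of which 5 were lower in Irf1-/- cells, 2 higher and 15 not past the threshold, beside 12.4% lower and 11.4% higher over all genes tested, with a median log2 fold change of -0.077. The nearest tested genes on either side were Unc45b, a myosin chaperone, with 12.9 ± 4.23 in WT and 9.80 ± 0.903 in Irf1-/- cells (SD, n = 3; log2 fold change -0.31, limma adjusted p = 0.570), and AI662270, with 1515 ± 39.1 and 1380 ± 15.3 (SD, n = 3; log2 fold change -0.13, limma adjusted p = 0.0822), whose annotation overlaps Gm11427. AI662270 passed with the replicate number as a block in the fit (limma adjusted p = 0.0395) and in replicates 1 and 2 alone (limma adjusted p = 0.0460). Among the genes that passed in the main fit, named after their values were seen, were the chemokine gene Ccl1 (-1.08), Lig3 (-0.29), Ddx52 (-0.19) and Acaca (-0.27), which were lower, and Taf15 (0.20) and Dusp14 (0.61), which were higher. Ccl1 was at -0.71 without WT replicate 2 (limma adjusted p = 0.166) and -0.49 with the Y-linked covariate (limma adjusted p = 0.303). Ddx52 lost its call whichever library was left out. The highest limma adjusted p without a library in turn was 0.0823 for Acaca, 0.119 for Taf15 and 0.113 for Dusp14. For Lig3 it was 0.0402, so that its call was kept. With 1 library left out, between 1 and 3 of the 22 were lower, the fewest without WT replicate 1. Limma called 1 of the 22 higher in each of these fits except without WT replicate 2, where it called 0 (2 at an unadjusted p under 0.05), and in the 4 Xist libraries limma called 0 in either direction, with 2 lower and 2 higher at an unadjusted p under 0.05.

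**Figure D4:**
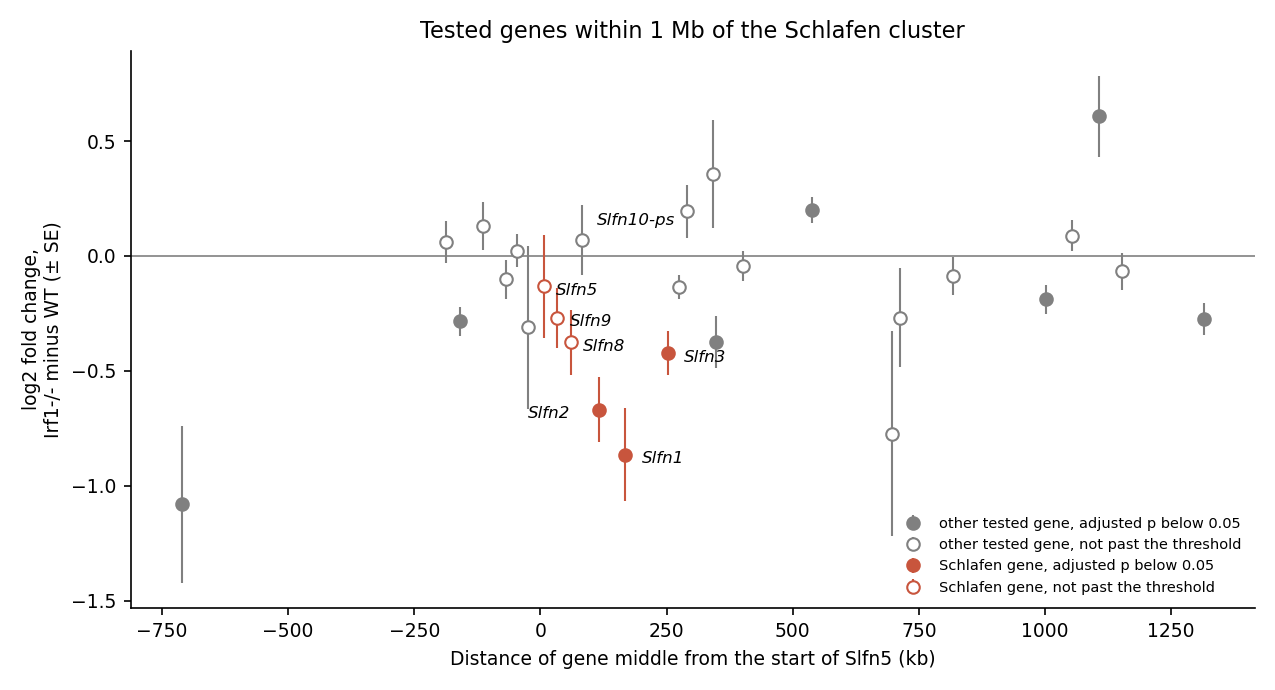
log2 fold change ± SE, Irf1-/- minus WT, of all tested genes within 1 Mb of the Schlafen cluster against the distance of the gene's middle from the start of Slfn5, with Schlafen genes in red, other genes in grey and filled circles for an adjusted p below 0.05. The 3 filled red circles are Slfn2, Slfn1 and Slfn3, and the other genes lie on both sides of 0, with Slfn10-ps at 0.069 between Slfn8 and Slfn2. Slfn4, which was not tested, is not drawn.

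Genes of 4 functions linked to the Schlafen family were examined beside the members, in lists drawn up with earlier results of these data known. Of 20 interferon-inducible genes that act on RNA or on translation, 13 were tested, 4 were lower in Irf1-/- cells, 0 were higher, and the median log2 fold change was -0.22. Over all genes tested 12.4% were lower, a share that was 7.29% without WT replicate 1, 7.26% without WT replicate 2, 8.82% without Irf1-/- replicate 1, 7.87% without Irf1-/- replicate 2 and 3.44% in the 4 Xist libraries. The 4 were Isg20, an exonuclease (20.4 ± 7.08 in WT and 7.20 ± 3.21 in Irf1-/- cells, SD, n = 3, log2 fold change -1.41, limma adjusted p = 0.0354), the oligoadenylate synthetase Oas3 (-0.99, limma adjusted p = 0.0310), Samhd1, which degrades nucleotides (-0.35, limma adjusted p = 0.0297), and Pnpt1, a mitochondrial RNA nuclease (-0.22, limma adjusted p = 0.0270). At an unadjusted limma p under 0.05, 2 of the 13 were higher, beside 4172 of the 11379 genes tested in either direction. The tools edgeR and DESeq2 called 0 higher. edgeR called 4 of the 13 lower, and DESeq2 called 1, Samhd1. Single libraries decided most of these calls: by limma, 0 of the 13 were lower without WT replicate 1 (5 at an unadjusted p under 0.05) or without Irf1-/- replicate 1 (4 at an unadjusted p under 0.05), without WT replicate 2, WT replicate 3 or Irf1-/- replicate 2, 1 was lower, and without Irf1-/- replicate 3, 4 were lower. In the 4 Xist libraries 2 other genes of the list were lower, and none of the 4 named above passed. With the Y-linked covariate Isg20 was at -0.90 (limma adjusted p = 0.210) and Oas3 at -1.07 (limma adjusted p = 0.0665), neither past the threshold. Without WT replicate 3, 2 were higher.

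Of 7 genes that cut or protect tRNA, the process in which Slfn2 takes part, 6 were tested and 0 passed the threshold in either direction by limma, edgeR or DESeq2, with a median log2 fold change of -0.12. At the adjusted threshold, limma called 12.4% of all genes tested lower and 11.4% higher. At an unadjusted limma p under 0.05, 1 of the 6 was lower and 1 higher, beside 4172 of the 11379 genes tested in either direction. Without WT replicate 3, 1 gene was lower and 1 higher.

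Slfn2 is also counted among regulators of T cell quiescence. Of 19 others, 18 were tested, 8 were lower in Irf1-/- cells, 1 was higher, beside 12.4% lower and 11.4% higher over all genes, and the median log2 fold change was -0.14. The quiescence factor Klf2 fell from 53.9 ± 25.5 to 15.8 ± 8.18 (SD, n = 3, log2 fold change -1.72, limma adjusted p = 0.0255). Its call rested on WT replicates 1 and 2: it was -1.51 without WT replicate 1 (limma adjusted p = 0.0993), -1.46 without WT replicate 2 (limma adjusted p = 0.108), -0.86 with the Y-linked covariate (limma adjusted p = 0.139) and -0.76 in the 4 Xist libraries (limma adjusted p = 0.509). The repressor Bach2 fell from 1944 ± 78.4 to 1408 ± 143 (SD, n = 3, log2 fold change -0.47, limma adjusted p = 0.00140). The antiproliferative gene Tob1 was the one that rose, from 140 ± 6.95 to 192 ± 16.6 (SD, n = 3, log2 fold change 0.45, limma adjusted p = 0.0115), but was not past the threshold without Irf1-/- replicate 2 (0.38, limma adjusted p = 0.0532). The count of 8 was 3 without WT replicate 1 or WT replicate 2, 4 without Irf1-/- replicate 1, 5 without Irf1-/- replicate 2, and 1 in the 4 Xist libraries.

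Of 13 receptors and signalling genes of the interferon pathways, all tested, 0 were higher by limma, edgeR or DESeq2. At an unadjusted limma p under 0.05, 1 was higher, beside 4172 of the 11379 genes tested in either direction. By limma 3 of the 13 were lower, beside 12.4% of all genes, and the median log2 fold change was 0.050. Among the 3 were the factors Irf2 (413 ± 20.4 and 209 ± 36.5, SD, n = 3, log2 fold change -0.99, limma adjusted p = 3.15e-04) and Irf8 (14120 ± 686 and 11119 ± 1561, SD, n = 3, log2 fold change -0.35, limma adjusted p = 0.0178). Irf8 was at -0.23 without Irf1-/- replicate 3 and lost its call without WT replicate 1 or WT replicate 2. The count lower was 2 without WT replicate 1 or WT replicate 2, 4 without Irf1-/- replicate 3 and 1, Irf2, in the 4 Xist libraries. Without Irf1-/- replicate 1 and in the 4 Xist libraries, 1 gene of the list was higher.

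As a description, genes with a mean of at least 100 were ordered by the Pearson correlation of their log2 values with those of Slfn2 and Slfn1 over the 6 libraries. These differ in genotype and depth, which the genes have in common, so that genes with a difference between the genotypes share that part of their pattern. The pattern of Slfn2 was most like those of Rpl7l1 (r = 0.997), Spata13 (r = 0.996) and Lrch1 (r = 0.995), and 428 of 8224 genes had an r above 0.9. That of Slfn1 was most like those of Bcl10 (r = 0.995), Zfp35 (r = 0.988) and Trac (r = 0.980), with 127 of 8225 genes above 0.9.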

How the data were processed

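T cells of 3 WT and 3 Irf1-/- mouse cultures were compared by RNA-Seq on poly(A) RNA. Per the labels and the study's methods, the authors aligned single-end reads to GRCm38 with STAR 2.4.0b, counted them per Ensembl gene with featureCounts and normalized with DESeq2 1.12.3. The deposited signal is a normalized count, and 100% of its values were whole reads divided by a library size factor (tolerance 0.01 reads). The rule for reads with several matches and for strand was not given in the sources used here. Coordinates and exon lengths came from GENCODE M21, promoter windows from RefSeq (GRCm38.p6).

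The test was limma 3.58.1 under R 4.3.3, for all genes whose mean reached 10 (eBayes with a trend, pseudocount 1, threshold 0.05). Count models on the recovered reads (edgeR 4.0.16, DESeq2 1.42.0) were alternatives, beside other pseudocounts, filters, scalings, a replicate block and left-out libraries. The fits were tested on simulated data.

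The members, the gene lists and the alternatives were chosen with earlier results of these data known. Genes named outside the family are Irf1, genes between or next to the members, at most 4 called genes per list with the largest fold change, and the 3 most correlated genes, with exceptions marked in the text. Some genes that the rule names are not reported here. Chromatin data were not used here.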

Additional observations from a re-analysis of the deposited data

How the results depend on the processing

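The groups of 3 and libraries of 5639788 to 13348230 reads limit the precision, and Slfn5, the lowest tested member, had no value with a filter at 50. Fold changes without each library in turn ranged from -1.04 to -0.63 for Slfn1, -0.83 to -0.53 for Slfn2, -0.45 to -0.36 for Slfn3, -0.30 to -0.0074 for Slfn5, -0.47 to -0.28 for Slfn8 and -0.38 to -0.18 for Slfn9, and the mean difference of Slfn4 from -0.89 to 3.64 normalized counts. Calls were lost for Slfn1 without WT replicate 2 (limma adjusted p = 0.0528), for Slfn3 without WT replicate 1 (limma adjusted p = 0.0524), and for Slfn2 without a mean-variance trend (-0.67, limma adjusted p = 0.0594). In the 4 Xist libraries, a choice made after seeing the data, the values were -0.87, -0.35 and -0.36 for Slfn1, Slfn2 and Slfn3 with no call, 0.16 for Slfn5, and 392 genes were lower and 392 higher in all, with 1 WT library assumed to vary like the others. Slfn5 was also above 0 with the Y-linked covariate (0.039) and in the pair of replicates 3 (0.50, no test), against -0.45 in replicates 1 and 2. Slfn8 passed with quantile normalization (-0.45, limma adjusted p = 0.0452) and without Irf1-/- replicate 3 (-0.47), and its log2 ratio of means was -0.13 when summed with Slfn9 and Slfn10-ps. The genes called lower numbered 1406, but 807 without a trend and 826 to 1472 without a library in turn, and those called higher 1293 and 799 to 1372; the lower counts came without WT replicate 1, WT replicate 2 or Irf1-/- replicate 2. Slfn10-ps ranged from -0.13 (without WT replicate 3) to 0.19 without a library in turn and was -0.12 in replicates 1 and 2, and Unc45b to 0.11 with the Y-linked covariate and 0.26 in the Xist libraries. The cause of these shifts was not tested. Apart from the replicate block, all other alternatives kept the direction and the side of the threshold of Slfn1, Slfn2, Slfn3, Slfn8 and Slfn9, and no scaling moved the median of all genes by 0.1.

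The labels give replicate numbers in both genotypes but do not say that a number marks a shared mouse, day or batch. The deviations of same-numbered libraries from their group means correlated at 0.092, 0.27 and 0.32, so that the numbers were not taken as pairs, although every library correlated best with its own number, which is a hint from the data. Replicate 3 was also the deepest library of both genotypes. With the replicate block, Slfn8 passed (-0.38, limma adjusted p = 0.0477) and 2116 genes were called lower.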
